A study of Homo sapiens with 2 samples.

Results

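The Frizzled proteins FZD1 to FZD7, the co-receptors LRP5 and LRP6 and the orphan receptor tyrosine kinase ROR1 are the Wnt receptors described here. They are 10 of the 44591 genes in the deposited table, taken by symbol. The series profiled poly(A) RNA of 2 cultured human liver cancer lines, MHCC97H and MHCC97L, both derived from the hepatocellular carcinoma line MHCC97. Per the labels, MHCC97H has high and MHCC97L low spontaneous metastatic potential. Both are labelled wild type and were grown in DMEM with fetal bovine serum, with no treatment that differed between them. Each line is represented by 1 library, so nothing is known of the spread between cultures, and every comparison is between 2 libraries. The genes were chosen by name as a receptor family, and selected on their read counts in these same 2 libraries, all of which were known. Their values are therefore descriptions and carry no test, and the intervals are 95% exact intervals for counting error only. Amplified reads can be copies of 1 molecule, so the true counting error may be wider.

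Wnt proteins are secreted lipid-modified ligands. In the beta-catenin branch, a Wnt bridges a Frizzled receptor, which binds the lipid in its cysteine-rich domain, to LRP5 or LRP6, whose phosphorylated tail then recruits Axin and spares beta-catenin from degradation. ROR1 has a Frizzled-like cysteine-rich domain and takes part in beta-catenin-independent signalling with WNT5A. FZD3 and FZD6 are the Frizzleds best known for planar cell polarity, the alignment of cells within a sheet. In liver, the beta-catenin branch sets the zonation of hepatocytes, and mutations that activate it are common in hepatocellular carcinoma.

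FZD1, FZD2 and FZD7 form the most closely related Frizzled subgroup, and each is encoded by 1 exon. The longest exact stretches that FZD2 shares with other Frizzled transcripts are printed because reads that fall wholly inside them cannot be assigned by sequence alone. All of them lie in coding sequence. Coordinates are GRCh38 from GENCODE 29, a different build from the hg19 of the counts. The FZD1 stretch is at chr7:91266062-91266142 (plus strand) and is repeated in FZD2 at chr17:44558645-44558725 (plus strand). The FZD5 stretch is at chr2:207767712-207767763 (minus strand) and is repeated in FZD2 at chr17:44558701-44558752. The FZD7 stretch is at chr2:202034777-202034845 (plus strand) and is repeated in FZD2 at chr17:44557788-44557856. Capitals mark the 25 bases that FZD1, FZD2 and FZD5 have in common.
FZD1 and FZD2, 81 bases: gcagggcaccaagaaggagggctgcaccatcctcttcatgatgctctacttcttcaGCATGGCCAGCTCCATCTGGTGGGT
FZD2 and FZD5, 52 bases: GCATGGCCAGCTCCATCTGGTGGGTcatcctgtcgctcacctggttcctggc
FZD2 and FZD7, 69 bases: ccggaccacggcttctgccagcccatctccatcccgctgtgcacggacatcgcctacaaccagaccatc

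These stretches are a small part of each transcript. Of the 50-base words of the FZD2 transcript, 2.67% occur in a transcript of another gene, namely FZD1 (32 words), FZD7 (20 words) or FZD5 (3 words). For the other receptors the share lies between 0% for FZD6 and ROR1 and 0.913% for FZD3. LRP5 shares 6 of 5110 words with its partial copy LRP5L. Overlap on the genome matters more for FZD4, since 19.0% of its exonic bases lie opposite exons of the protease gene PRSS23, and the strand setting of the counting is not given. PRSS23 had 1180 reads in MHCC97H and 847 in MHCC97L, more than FZD4 itself, and its part in the FZD4 count was not tested. BAALC-AS1, which lies opposite 3.40% of the FZD6 exonic bases, had 1 read in MHCC97H and 0 in MHCC97L.

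The libraries held 28967153 counted reads for MHCC97H and 24964246 for MHCC97L. All 10 receptor genes were among the 14578 genes kept at 1 CPM or more in at least 1 library, CPM being counts scaled to library size. Of the 8 hepatocyte markers examined, 7 reached 1 CPM, with SERPINA1 at 178314 reads in MHCC97H and 198075 in MHCC97L, but APOA1 had 4 reads in each library and albumin (ALB) 57 and 131. All 6 cholangiocyte markers reached 1 CPM, with summed levels of 1094 CPM and 1148 CPM. Of the markers of other cells, 1 of 6 endothelial, 4 of 8 fibroblast or stellate cell and 2 of 6 leukocyte genes reached 1 CPM. Their summed levels were 96.2 CPM and 124 CPM for the endothelial list, nearly all from ENG (2944 and 2891 reads), 20.7 CPM and 26.6 CPM for the fibroblast list, which includes COL1A1 (283 and 184 reads), and 13.2 CPM and 17.4 CPM for the leukocyte list, which includes CD68 (233 and 148 reads). PECAM1 (1 and 3 reads), THY1 (3 and 4) and PTPRC (1 and 0) were near 0, and CD3E and TYROBP had 0 reads in both libraries. The part of such markers in the receptor values was not tested.

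FZD6 was the receptor with the widest difference between the libraries. It had 465 reads in MHCC97H and 91 in MHCC97L, or 15.1 CPM (13.8 to 16.6) against 3.87 CPM (3.12 to 4.75). That is a 3.91-fold higher level in MHCC97H (3.12 to 4.95), and 99.6% of kept genes had a lower ratio. ROR1 came next, with 169 reads against 46, or 5.50 CPM (4.70 to 6.39) against 1.96 CPM (1.43 to 2.61), a 2.81-fold higher level (2.02 to 3.98). FZD3, the relative of FZD6 in planar polarity, had 161 reads against 56, or 5.24 CPM (4.46 to 6.11) against 2.38 CPM (1.80 to 3.09), a 2.20-fold higher level (1.61 to 3.04). These are the receptors with the fewest reads in MHCC97L, and for each the intervals of the 2 libraries do not overlap. In bulk RNA, fewer cells with a transcript and less of it per cell cannot be told apart.

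FZD2 was at the opposite end. It had 514 reads in MHCC97H and 724 in MHCC97L, or 16.7 CPM (15.3 to 18.2) against 30.8 CPM (28.6 to 33.1), a log2 ratio of MHCC97H over MHCC97L of -0.88 (-1.05 to -0.72). Its closest relatives differed less. FZD1 had 292 reads against 290, or 9.50 CPM against 12.3 CPM (log2 ratio -0.38, interval -0.62 to -0.14). FZD7, often described as raised in liver cancers, had 173 reads against 150, or 5.63 CPM against 6.38 CPM (-0.18, interval -0.50 to 0.14). For FZD7 the counting interval includes equal expression, so no difference was detectable at this depth.

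FZD5 and FZD4 were the Frizzled genes with the most reads in MHCC97H. FZD5, which acts through beta-catenin in the gut and eye, had 874 reads against 552, or 28.4 CPM (26.6 to 30.4) against 23.5 CPM (21.6 to 25.5), a log2 ratio of 0.28 (0.12 to 0.43). FZD4, also the receptor for the non-Wnt ligand norrin in retinal vessels, had 792 reads against 517, or 25.8 CPM (24.0 to 27.6) against 22.0 CPM (20.1 to 24.0), a log2 ratio of 0.23 (0.07 to 0.39). Both were slightly higher in MHCC97H, by less than 1.5-fold. The FZD4 to FZD5 read ratio, which needs no scaling between libraries, was 0.906 in MHCC97H (0.822 to 0.999) and 0.937 in MHCC97L (0.829 to 1.06), and these intervals overlap.

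**Figure D1:**
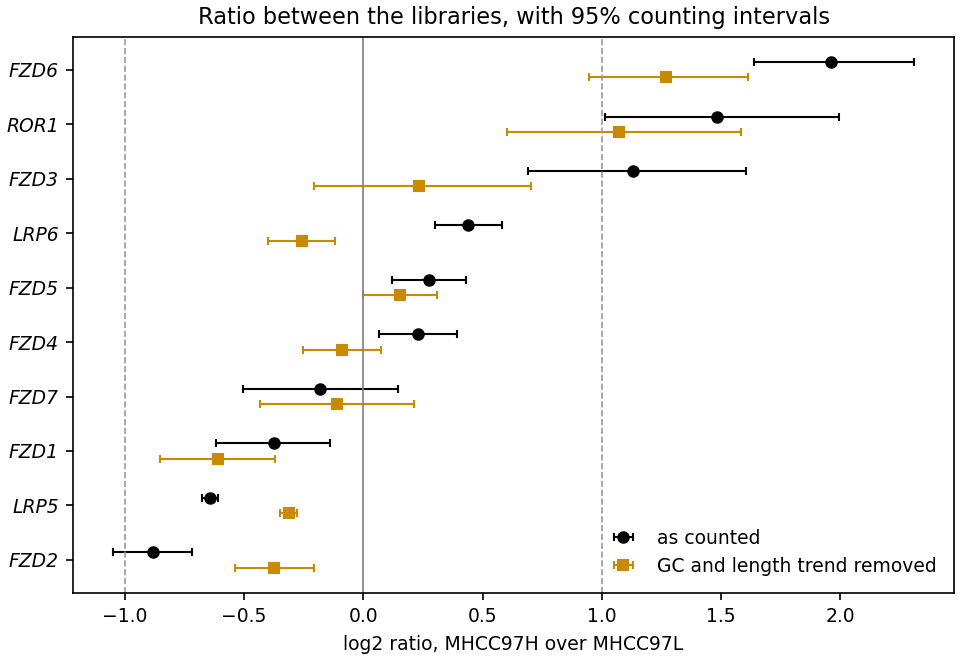
The log2 ratio of MHCC97H over MHCC97L (horizontal axis) for each receptor gene, as counted (circles) and with the trend with transcript GC content and length removed (squares). Bars are 95% counting intervals and dashed lines mark a 2-fold difference; FZD6 and ROR1 lie beyond the right-hand line in both forms, and FZD3 only as counted.

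As counted, the co-receptors ran in opposite directions, but LRP6 turns to -0.26 with the trend on transcript composition removed, on the same side as LRP5 at -0.31. LRP5 had 12183 reads in MHCC97H and 14551 in MHCC97L, or 396 CPM (389 to 403) against 619 CPM (609 to 629), a log2 ratio of -0.64 (-0.68 to -0.61). LRP6 had 1152 reads against 650, or 37.5 CPM (35.3 to 39.7) against 27.6 CPM (25.6 to 29.8), a log2 ratio of 0.44 (0.30 to 0.58). Within a library, LRP5 had 10.6 reads per LRP6 read in MHCC97H (9.95 to 11.2) and 22.4 in MHCC97L (20.7 to 24.3). Per kb of the longest transcript these ratios are 20.5 (19.3 to 21.8) and 43.5 (40.2 to 47.1), values that depend on the transcript model. That comparison is free of library scaling, and the intervals do not overlap. It is not free of the composition trend, and with that removed the log2 ratios of LRP5 and LRP6 lie close, at -0.31 and -0.26. Summed over both genes, co-receptor reads came to 434 CPM in MHCC97H and 646 CPM in MHCC97L, which follows LRP5.

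A gene met the size rule used here when its absolute log2 ratio was at least 1 and its counting interval excluded equal expression. FZD6, ROR1 and FZD3 met it on the higher side, 3 of 10, beside 7.06% of all kept genes. None of the 10 met it on the lower side, beside 4.65% of all kept genes. Since the genes were chosen with these ratios known, nothing is read from that share. At a 1.5-fold limit FZD2 and LRP5 also met the rule on the lower side, beside 13.8% of kept genes, and no gene was added on the higher side, where the share of kept genes was 19.3%. The median log2 ratio of the 10 was 0.25, and that of all kept genes 0.03.

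The ratios followed the base composition of the transcripts. Across the 10 genes the Spearman correlation of the log2 ratio with the GC content of the longest transcript was -0.88, and across the kept genes it was -0.63. Genes share the same 2 libraries and are not replicates, so these are descriptions. FZD3 (34.9% GC) and FZD6 (38.4%) have AT-rich transcripts and high ratios, whereas LRP5 (62.8%) and FZD2 (64.9%) are GC-rich and have the lowest. LRP5 and LRP6, similar in function, differ widely in composition, with LRP6 at 40.2%. FZD5 (49.9%), FZD7 (52.8%), FZD1 (47.7%), FZD4 (46.2%) and ROR1 (44.1%) lie between. What moves the ratio with GC content in these libraries was not tested.

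With a smooth trend of the ratio on GC content and length removed, the picture of the receptors narrowed. FZD6 stood at a log2 ratio of 1.27 (0.95 to 1.61), above 98.8% of genes, and ROR1 at 1.07 (0.60 to 1.58), above 97.9%. These were the 2 that met the size rule, beside 2.41% of all genes with a value, and again none met it on the lower side, beside 3.7%. FZD3 stood at 0.23 with an interval of -0.21 to 0.70, which includes 0. LRP6 turned from 0.44 to -0.26 (-0.40 to -0.12) and FZD4 from 0.23 to -0.09 (-0.25 to 0.07). LRP5 (-0.31, interval -0.35 to -0.28) and FZD2 (-0.37, interval -0.54 to -0.21) stayed below 0 but nearer to it. LRP5 and LRP6 thus had the same sign after this step. FZD1 moved away from 0, to -0.61 (-0.85 to -0.37), and became the lowest of the 10. FZD5 (0.15) and FZD7 (-0.11) lay near 0. The median of the 10 was -0.10.

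**Figure D2:**
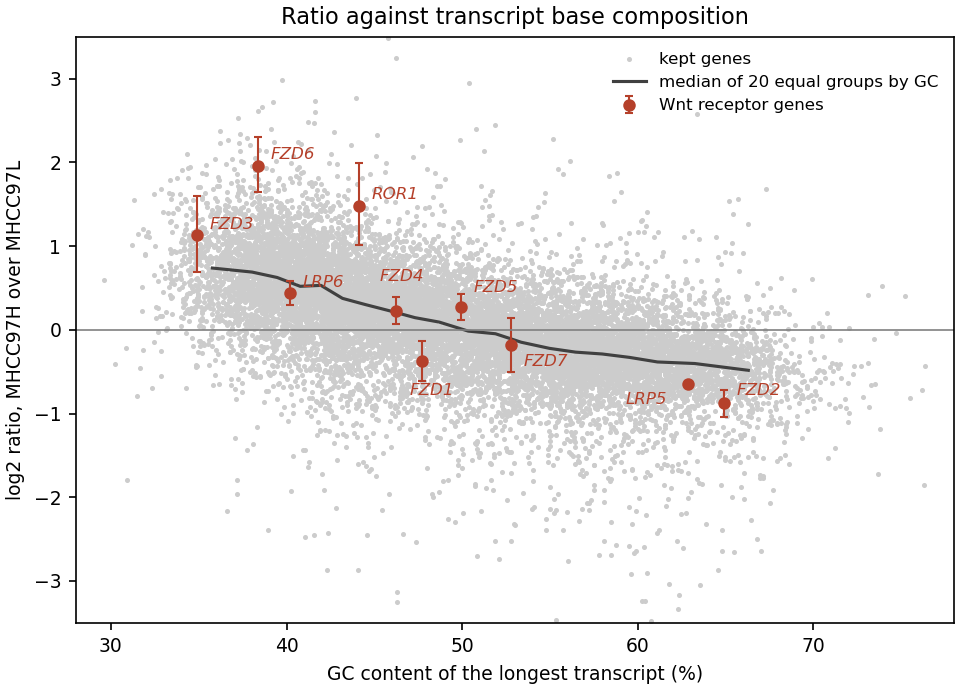
Each grey point is a kept gene, by the GC content of its longest GENCODE 29 transcript (horizontal, %) and its log2 ratio of MHCC97H over MHCC97L (vertical); the line joins medians of 20 equal groups by GC, red points are the receptor genes with 95% counting intervals, and 18 kept genes fall outside the axes. FZD6 and ROR1 lie well above the line, FZD1 below it, and LRP6 and FZD4 close to it.

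Per length of the longest transcript, LRP5 and FZD2 led in both libraries. Values here are CPM divided by that length in kb (RPKM). With the median transcript length, which for LRP6 is 593 bases, LRP6 stood at 63.2 RPKM in MHCC97H and 46.6 RPKM in MHCC97L, above FZD2. LRP5, with a median length of 551 bases, then stood at 719 RPKM and 1123 RPKM. With the longest transcript, LRP5 stood at 76.8 RPKM in MHCC97H (75.4 to 78.2) and 120 RPKM in MHCC97L (118 to 122). FZD2 stood at 7.92 RPKM (7.25 to 8.63) and 14.6 RPKM (13.5 to 15.7). The level of FZD2 depends on the transcript model, because the GENCODE transcript has 2112 bases and the RefSeq gene spans 3779. With the RefSeq length FZD2 had 4.42 RPKM in MHCC97H (4.05 to 4.82), which overlaps the interval of FZD5, and 8.15 RPKM in MHCC97L (7.56 to 8.76).

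In MHCC97H, FZD5 (4.24 RPKM), FZD6 (3.99), LRP6 (3.74) and FZD4 (3.49) followed FZD2, and each overlapped its neighbour in this order within counting error. FZD7 (1.46) and FZD1 (1.36) came next and overlapped each other, and ROR1 (0.942) and FZD3 (0.381) were lowest and apart. In MHCC97L the order after FZD2 was FZD5 (3.50), FZD4 (2.98), LRP6 (2.76), FZD1 (1.77), FZD7 (1.65), FZD6 (1.02), ROR1 (0.335) and FZD3 (0.173). FZD6 goes from rank 4 of the 10 in MHCC97H to rank 8 in MHCC97L, while FZD1 changes order with FZD7 and FZD4 with LRP6, pairs whose intervals overlap in both libraries. ROR1 and FZD3 are the lowest in both libraries.

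**Figure D3:**
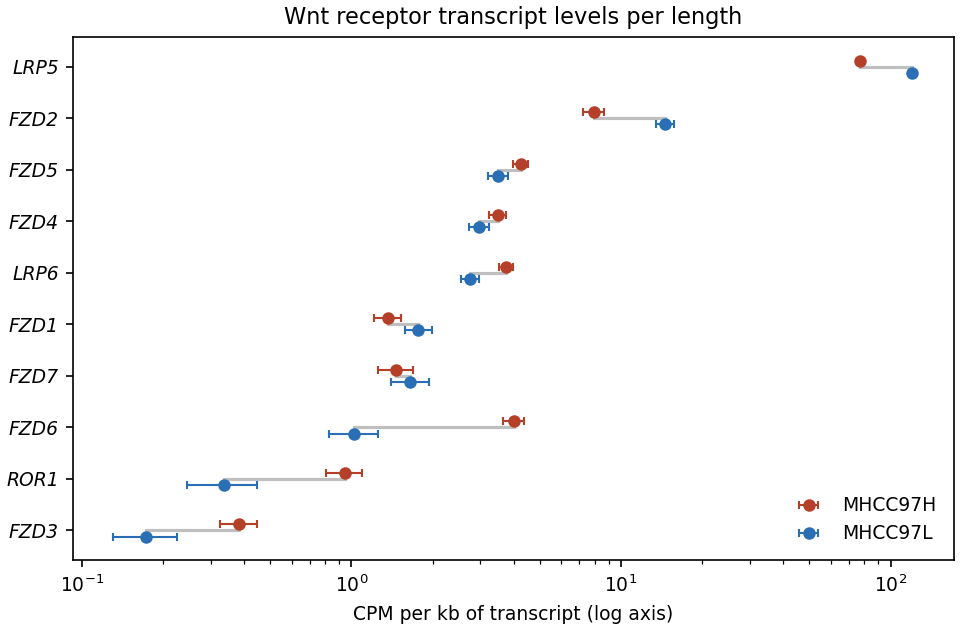
CPM per kb of transcript (logarithmic axis) for each receptor gene in MHCC97H (red) and MHCC97L (blue), 1 library each, with 95% counting intervals; grey lines join the libraries. LRP5 is at 76.8 and 120, and FZD6 moves from 1.02 in MHCC97L to 3.99 in MHCC97H, level with FZD5, LRP6 and FZD4.

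The Frizzled genes as a pool had nearly the same level in both libraries, with a different make-up. The 7 genes together had 3271 reads in MHCC97H and 2380 in MHCC97L, or 106 CPM against 101 CPM, a log2 ratio of 0.07 whose interval (-0.004 to 0.15) includes equality. Without FZD6 it was -0.09 (-0.17 to -0.01). FZD6 made up 14.2% of the pool's reads in MHCC97H (13.0 to 15.5%) and 3.82% in MHCC97L (3.09 to 4.67%). FZD2 made up 15.7% (14.5 to 17.0%) and 30.4% (28.6 to 32.3%). FZD6 thus had 0.905 reads per FZD2 read in MHCC97H (0.796 to 1.03) and 0.126 in MHCC97L (0.100 to 0.156). Per kb of the longest transcript these ratios were 0.504 and 0.0701. The log2 ratios of FZD6 and FZD2, 1.96 and -0.88 as counted, lay nearer each other with the composition trend removed, at 1.27 and -0.37. The pool shares were not computed with that trend removed.

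Shares of reads also reflect transcript length. On that scale FZD5 held the largest share in MHCC97H, at 26.7%, against 23.2% in MHCC97L, and FZD4 held 24.2% and 21.7%. FZD3 accounted for 4.92% and 2.35%, FZD1 for 8.93% and 12.2%, and FZD7 for 5.29% and 6.30%. Per length of the longest GENCODE transcript, FZD2 accounted for 34.7% of the pool in MHCC97H and 56.8% in MHCC97L, and FZD6 for 17.5% and 3.98%. The summed Frizzled level per length was 22.8 RPKM in MHCC97H and 25.7 in MHCC97L, but 19.1 and 19.0 with RefSeq lengths for the genes of 1 exon. FZD2 had 4.42 RPKM and 8.15 RPKM of those RefSeq-length sums, smaller shares than with the GENCODE length.

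**Figure D4:**
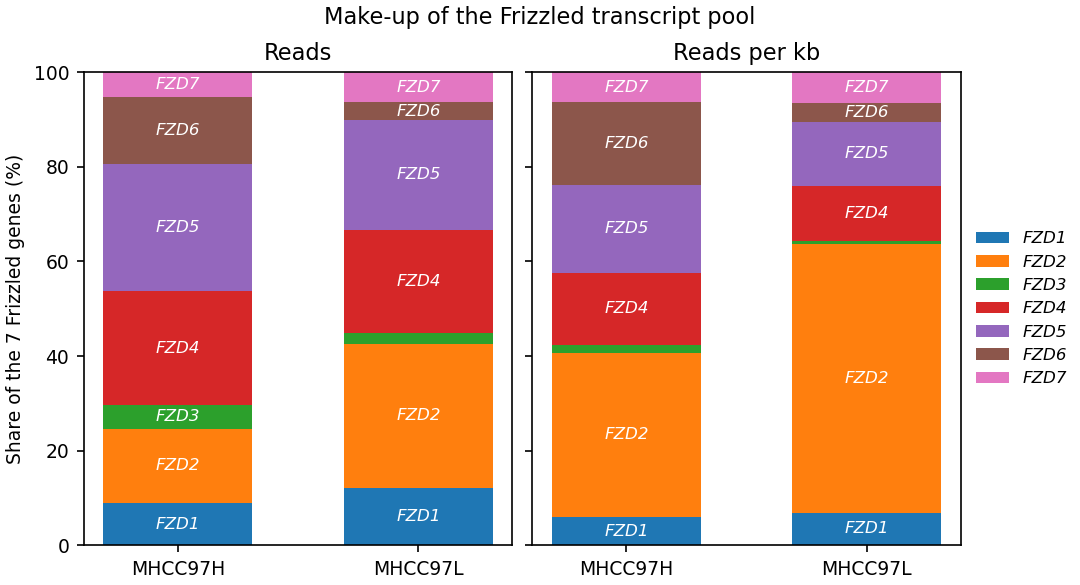
Share of each Frizzled gene (%) in the sum over the 7 genes, by reads (left) and by reads per kb of the longest transcript (right), in 1 library of each line. The FZD6 segment is 14.2% of reads in MHCC97H and 3.82% in MHCC97L, and the FZD2 segment 15.7% and 30.4%.

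As counted, for FZD6, FZD3, FZD2, LRP5, LRP6 and FZD1, the counting intervals of the nearest kept genes on either side did not overlap their own. For ROR1, FZD4 and FZD5 there was an overlap. Neighbours were not compared with the composition trend removed, a step that took LRP6 to -0.26 and FZD3 to 0.23. The nearest kept genes on either side of FZD6, ATP6V1C1 (a proton pump subunit) and CTHRC1 (a secreted collagen-repeat protein that binds Wnt and Frizzled), had log2 ratios of 0.60 (0.45 to 0.74) and 0.20 (-0.03 to 0.44), against 1.96 for FZD6. Those of ROR1, the phosphoglucomutase gene PGM1 and CACHD1, had -0.39 (-0.45 to -0.33) and 0.62 (0.13 to 1.15), against 1.48 for ROR1. FZD3 lies between FBXO16 (22 and 25 reads, -0.56, interval -1.47 to 0.31) and EXTL3 (-0.14, interval -0.25 to -0.03). On the other side, FZD2 at -0.88 lies between GPATCH8 (0.43) and CCDC43 (1.01), and LRP5 at -0.64 between C11orf24 (-0.07) and PPP6R3 (0.80). Around LRP6 they were ETV6 (-0.05) and MANSC1 (-0.43), and around FZD1 CLDN12 (0.67) and MTERF1 (0.29). FZD4 lies between PRSS23 (0.09) and TMEM135 (0.44), and FZD5 between PLEKHM3 (0.03) and an unnamed gene with 89 and 25 reads (1.43).

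Promoter sequence from RefSeq (GRCh38.p14) was examined for 5 of the 10 genes, namely ROR1, FZD1, LRP5, FZD4 and FZD5. The 250 bases before the start are printed for ROR1, which has the highest ratio of the 5, and for FZD1 and LRP5, which have the lowest. They show what these genes carry just upstream and differ in base composition. The windows are chr1:63773767-63774016 (plus strand) for ROR1, chr7:91264183-91264432 (plus strand) for FZD1 and chr11:68312341-68312590 (plus strand) for LRP5. Capitals mark the letters GGGCGG or CCGCCC, a GC box on either strand.
ROR1: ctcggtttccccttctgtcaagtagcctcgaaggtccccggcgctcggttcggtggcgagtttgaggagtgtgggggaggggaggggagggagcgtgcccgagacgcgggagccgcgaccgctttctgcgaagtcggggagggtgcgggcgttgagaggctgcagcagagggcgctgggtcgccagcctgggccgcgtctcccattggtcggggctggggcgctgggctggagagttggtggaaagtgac
FZD1: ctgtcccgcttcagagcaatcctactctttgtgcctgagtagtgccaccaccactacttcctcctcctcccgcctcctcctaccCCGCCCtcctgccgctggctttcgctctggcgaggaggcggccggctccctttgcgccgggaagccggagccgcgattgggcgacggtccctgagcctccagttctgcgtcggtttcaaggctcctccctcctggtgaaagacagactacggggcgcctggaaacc
LRP5: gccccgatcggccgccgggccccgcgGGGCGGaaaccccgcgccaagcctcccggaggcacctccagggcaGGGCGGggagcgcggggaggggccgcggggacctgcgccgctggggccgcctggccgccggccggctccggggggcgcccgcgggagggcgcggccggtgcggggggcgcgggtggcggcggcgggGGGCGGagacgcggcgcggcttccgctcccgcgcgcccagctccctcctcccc

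All 5 windows are GC-rich, at 69.2% for ROR1, 65.2% for FZD1, 87.2% for LRP5, 80.8% for FZD4 and 76.8% for FZD5, against a median of 58.0% over 35116 RefSeq windows of this length. GC-box letters occurred 0 times in the ROR1 window, 1 time in FZD1, 3 times in LRP5 and 6 times each in FZD4 and FZD5, and 42.6% of all windows hold at least 1 match. A CCAAT or ATTGG occurred once in each window except that of LRP5, where there was none, and 32.0% of all windows hold it. The core letters bound by TCF factors, searched as CTTTGA and CTTTGT on both strands, were found only in FZD1, as 1 match of CTTTGT, which 13.7% of all windows hold. CTTTGA was found in 11.2% of all windows. TATAAA, held by 10.7% of all windows on either strand, was found in none of the 5. A match is a description of the letters, not a binding site. No window was found for FZD2, FZD7 and LRP6, and FZD3 and FZD6 were left out of the search. The receptor with the widest difference, FZD6 (log2 ratio 1.96), is therefore not covered by these descriptions.

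Of the other Wnt receptor genes, PTK7, RYK and FZD8 were kept and lay within 2-fold as counted, and the rest had few or no reads. PTK7, a pseudokinase of planar polarity, had 1582 reads in MHCC97H and 1144 in MHCC97L (log2 ratio 0.08, interval -0.03 to 0.19). RYK, a Wnt-binding pseudokinase, had 1208 and 764 reads (0.27, interval 0.14 to 0.41). FZD8, close kin of FZD5, had 41 and 17 reads (0.87, interval 0.04 to 1.79). FZD9 had 8 and 2 reads, ROR2, the paralog of ROR1, 11 and 6, and RECK, a membrane-anchored partner of WNT7 signalling, 18 and 15, all below the 1 CPM filter. FZD10 and MUSK had 0 reads in both libraries. With 3 reads taken as the limit, over total counts, that allows up to 0.104 CPM in MHCC97H and 0.120 CPM in MHCC97L. Unlike the other CPM values, these limits carry no further scaling between libraries. With the composition trend removed, FZD8 stood at 1.27 and PTK7 at 0.30, while RYK turned to -0.50.

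Among the genes that act on the receptors, the ubiquitin ligases RNF43 and ZNRF3, which remove Frizzled from the surface, lay within 1.5-fold, with 209 CPM against 188 CPM (log2 ratio 0.16) and 163 CPM against 157 CPM (0.05). LGR6, a receptor for the R-spondins that block those ligases, had 97 reads against 237 (-1.67, interval -2.03 to -1.33). The more abundant R-spondin receptors LGR4 and LGR5, named after their values were seen, differed in direction. LGR4 had 55.2 CPM against 29.1 CPM (0.92, or 0.38 with the composition trend removed). LGR5 had 27.2 CPM against 45.1 CPM (-0.73, or -1.13 with that trend removed). In this list of 9 genes, 5 were kept. As counted, 0 met the size rule on the higher side and 1, LGR6, on the lower, with a median of 0.05.

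Of 19 Wnt ligands, 7 were kept, with 1 higher, 1 lower and a median of -0.10. WNT10A (35 and 10 reads, 1.38) and WNT4 (14 and 49 reads, -2.15) met the rule, both named after their values were seen. WNT3 (7.16 CPM and 7.65 CPM) and WNT7B (5.40 CPM and 4.76 CPM) were the most abundant ligands. Of 8 genes of ligand acylation and secretion, 1 was higher and 0 lower. Their median was 0.47 as counted and 0.08 once the trend was removed. The higher gene was VPS26A, a retromer subunit (38.7 CPM against 12.7 CPM, 1.61). The Wnt carrier WLS had 152 CPM against 133 CPM (0.19). The cargo receptor TMED2 stood at 0.62, or 0.07 with the trend removed. Of 18 extracellular antagonists in the table, 8 were kept, with 1 higher (DKK1, an LRP5 and LRP6 blocker, 153 CPM against 43.6 CPM), 1 lower (NOTUM, which strips the lipid from Wnt, 4.59 CPM against 22.3 CPM) and a median of -0.47. The antagonist median was -0.25 with the trend removed. None of the 7 kept genes of receptor folding and endocytosis met the rule, at a median of -0.29. AP2M1 and TMEM59 stood at -0.39 and -0.35, or -0.08 and -0.9996 with the trend removed.

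Downstream, few genes passed 2-fold. Of 22 genes that carry the signal to beta-catenin, 1 was higher, APC of the destruction complex (11.3 CPM against 5.48 CPM, 1.04, or 0.31 with the trend removed), and 0 lower, at a median of 0.04. The kinase genes CSNK1D and CSNK1G2 stood at -0.19 and -0.41, or -0.01 and 0.06 with the trend removed. Of 12 kept genes of the nuclear complex, 1 was lower and 0 were higher, at a median of -0.02. The lower gene was the co-repressor gene TLE2 (2.57 CPM against 6.63 CPM, -1.36, or -0.92 with the trend removed). The beta-catenin co-activator genes BCL9L and PYGO2 stood at -0.13 and -0.24, or 0.15 and 0.02 with the trend removed. Of 17 kept beta-catenin targets, 1 was higher and 2 lower at a median of 0.04, and the feedback inhibitor gene NKD1 (2461 reads against 4791, -1.35) was lower beside NOTUM.

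In the planar polarity and ROR list, 20 genes were kept, with 1 higher, 1 lower and a median of 0.09. The kinase gene ROCK2 was higher (58.4 CPM against 21.3 CPM, 1.45, or 0.75 with the trend removed) and the polarity effector gene FUZ lower (43 and 82 reads, -1.31, or -0.82 with the trend removed), the latter named after its values were seen. RHOA and RAC1, the small GTPases of this branch, stood at 0.12 and 0.06, or 0.06 and -0.19 with the trend removed. In the calcium branch 15 genes were kept, with 0 higher and NFATC4 lower (4.33 CPM against 9.69 CPM, -1.16, or -0.95 with the trend removed), and the median of 0.33 as counted became 0.02 once the trend was removed. PLCB3 and CAMK2G stood at -0.08 and -0.30, or 0.25 and -0.22 with the trend removed. Over all these lists together, 5 of 117 kept genes were higher (4.27%) and 7 lower (5.98%), beside 7.06% and 4.65% of all kept genes, with a median of 0.05.

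**Figure D5:**
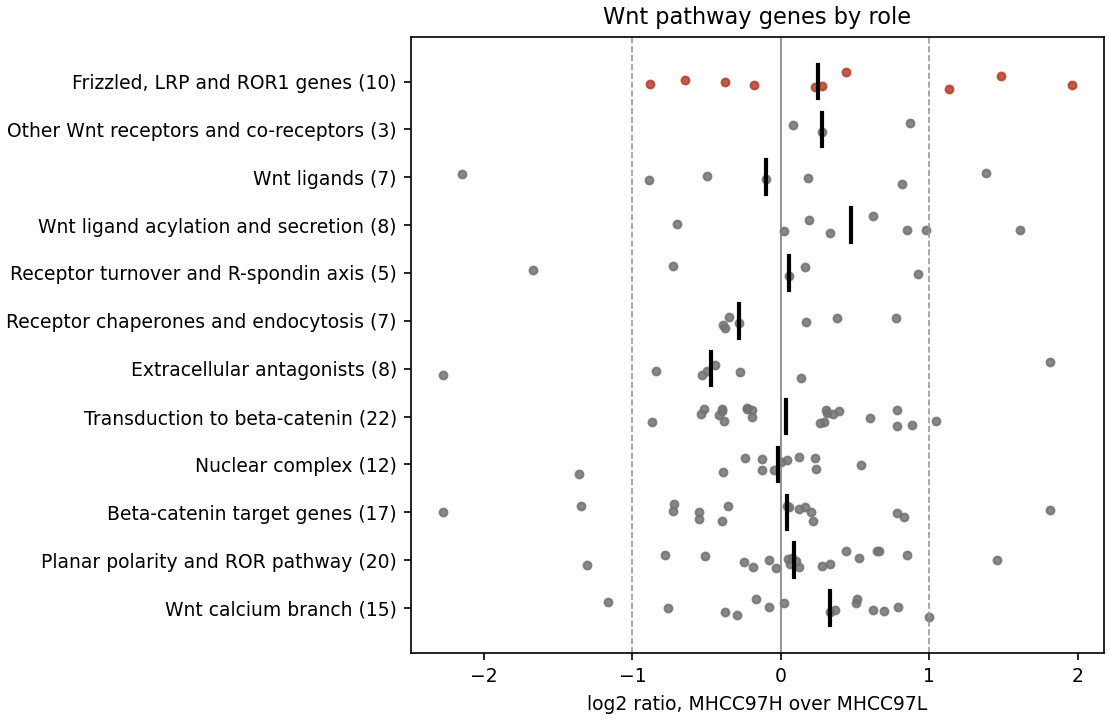
The log2 ratio of MHCC97H over MHCC97L for every kept gene of each Wnt pathway list, with the number kept in brackets; black bars are medians, dashed lines mark a 2-fold difference, and points are spread vertically for legibility. The receptor genes (red) run from -0.88 for FZD2 to 1.96 for FZD6 around a median of 0.25, and most genes of the other lists lie within 2-fold.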

How the data were processed

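Poly(A) RNA was sequenced from 1 library per line. The deposited table holds raw read counts per gene, unscaled; the description of each sample in the labels names its column. The submitters' processing notes list HISAT2 2.1.0, HTSeq 0.11.2, bcl2fastq and the build hg19. Which annotation was counted, whether strand was used and what became of multi-mapping reads is not given in the sources used here. The library kit in the labels is not described as strand-specific.

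TMM scaling in edgeR 4.0.16 under R 4.3.3 gave MHCC97H a factor of 1.06 and MHCC97L one of 0.942, from genes of at least 1 CPM by total counts in at least 1 library. Log2 ratios used a prior count of 0.5, and folds the reads alone. Ratio intervals are Clopper-Pearson intervals of the split of a gene's reads, and level intervals are exact Poisson, both at 95%. No p-value was computed. Transcript length and GC content came from GENCODE 29 (GRCh38) for 13849 kept genes (95.0%), and the trend was removed by lowess (span 0.2) on GC content, then log2 length (statsmodels 0.14.6). Shared words had 50 bases. DESeq2 1.42.0 gave alternative scaling factors. Steps were tested on simulated data.

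The receptors, the pathway lists and the rules were chosen with earlier results of these data known. Every receptor is named; of other lists, up to 4 genes of at least 5 CPM that met the size rule and, where fewer than 2 did, also the 2 most abundant; other Wnt receptors are named in full. Of the listed names, 2 were not matched in the table. The neighbours of FZD7 are not reported here.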

Additional observations from a re-analysis of the deposited data

How the results depend on the processing

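FZD6 and ROR1 met the 2-fold rule under each alternative run, and FZD3 under each except removal of the GC and length trend. With that trend removed, the median of the receptors turned from 0.25 to -0.10, FZD4 to -0.089 and LRP6 to -0.26, and 334 of all genes were higher. What causes the trend was not tested. Total counts as scaling moved every log2 ratio up by 0.17, with 1657 genes higher, a receptor median of 0.42, a pooled Frizzled ratio of 0.24, and 12 higher genes and a median of 0.22 over the pathway lists. DESeq2 factors moved ratios by 0.02. Without a filter 1443 genes were lower, and at 5 CPM 225. At 1.5-fold, 2813 genes were higher and 2009 lower, 2 receptors were lower (FZD2 and LRP5), and 25 and 15 pathway genes were higher and lower. Without FZD6 the pooled Frizzled ratio was -0.093. Median transcript lengths gave a summed Frizzled level of 24.6 RPKM in MHCC97H, and RefSeq lengths, chosen after seeing the data, 19.1 in MHCC97H and 19.0 in MHCC97L. No paired analysis was possible because each line has 1 library. ROR1 and FZD3, with 46 and 56 reads in MHCC97L, have the widest intervals, which cover counting error only.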
